A study of Mus musculus with 4 samples.

Results

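A panel of 50 mitosis genes, which mark dividing cells, was followed across 4 expression arrays of mouse bone marrow macrophages. The genes were picked by name for their known roles, with earlier results of these data known. Each was read from its brightest probe set that maps to 1 gene, by the mean of the 4 arrays. Of the 50, 49 had such a probe set among 18193 genes in all. The expression of Ccnb1, which encodes cyclin B1, was not analysed here. The groups were Jmjd3-/- cells with LPS, Jmjd3-/- cells unstimulated, wild-type cells with LPS and wild-type cells unstimulated, with 1 array each. All cells came from bone marrow grown for 5 days with M-CSF, the growth factor that drives macrophage formation and division. LPS, the bacterial cell wall component sensed by Toll-like receptor 4, was given at 100 ng/ml for 4 h. Jmjd3 is the demethylase of the repressive histone mark H3K27me3 that the gene Kdm6b encodes, and the labels give neither the deleted part of the gene nor the age, sex or number of the mice.

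Mitosis genes are switched on late in the cell cycle, so their transcripts mark cells that are about to divide or are dividing. Cyclins bound to Cdk1 start mitosis, Aurora and Polo-like kinases build the spindle, and kinetochores tie chromosomes to it. The spindle checkpoint holds the anaphase-promoting complex in check until all chromosomes are attached, after which the chromosomal passenger complex and centralspindlin direct the division of the cell body. Many promoters of these genes carry a cell cycle homology region (CHR), bound by the DREAM and MuvB complexes with B-Myb or Foxm1, and CCAAT boxes, bound by NF-Y. Macrophages grown in M-CSF are known to divide, and LPS is known to slow their division.

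The promoters of the 3 members with the lowest LPS effect among those whose window holds the CHR core are shown first, because these genes gave the strongest decrease and their windows show how the motifs lie around the gene start. The windows run from 250 bases before to 50 bases after the annotated start, read 5′ to 3′ on the gene's strand, and come from RefSeq (GRCm38.p6). Capitals mark each match to TTTGAA, the CHR core, or to CCAAT, on either strand, so that TTCAAA and ATTGG are the reversed forms.
Aspm, chr1:139454523-139454822, plus strand: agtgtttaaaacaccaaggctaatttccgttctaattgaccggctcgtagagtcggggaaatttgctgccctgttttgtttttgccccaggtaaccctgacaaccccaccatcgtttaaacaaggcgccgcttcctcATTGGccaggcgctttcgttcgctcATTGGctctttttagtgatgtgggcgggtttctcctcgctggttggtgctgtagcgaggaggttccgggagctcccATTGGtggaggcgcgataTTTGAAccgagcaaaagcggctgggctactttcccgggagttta
Anln, chr9:22389157-22389456, minus strand: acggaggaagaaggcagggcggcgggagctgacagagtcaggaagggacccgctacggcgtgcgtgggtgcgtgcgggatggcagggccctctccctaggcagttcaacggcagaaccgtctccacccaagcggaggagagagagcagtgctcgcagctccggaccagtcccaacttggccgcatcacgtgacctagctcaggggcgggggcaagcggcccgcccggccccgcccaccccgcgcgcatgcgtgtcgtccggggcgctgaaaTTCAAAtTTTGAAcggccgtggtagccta
Racgap1, chr15:99651607-99651906, minus strand: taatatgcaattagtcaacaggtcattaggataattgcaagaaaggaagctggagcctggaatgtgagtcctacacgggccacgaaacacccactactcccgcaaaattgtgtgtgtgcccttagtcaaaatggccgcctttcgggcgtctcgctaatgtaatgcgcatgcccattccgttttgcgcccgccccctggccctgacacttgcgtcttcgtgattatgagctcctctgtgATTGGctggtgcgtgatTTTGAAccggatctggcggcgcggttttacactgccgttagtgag
In Aspm the CHR core begins 7 bases into the transcript, with reversed CCAAT matches 113, 88 and 12 bases before the start. In Racgap1 it begins 6 bases into the transcript, with a reversed CCAAT match 12 bases before the start. Anln holds the core on both strands, beginning 22 and 29 bases into the transcript, and no CCAAT.

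The same arrangement was common among the members. Windows were given for 42 of the 50 genes, 45 windows in all, and TTTGAA was in 37 of them, or 82.2% (exact 95% binomial interval 67.9% to 92.0%). Across all 32851 windows of the mouse table the share was 17.9%, and among 9821 windows of genes tested on these arrays it was 12.0%. CCAAT was in 77.8% of member windows, against 37.4% of all windows. Both motifs stood in 71.1% of member windows, against 6.95% of all windows and 4.64% of windows of tested genes. Of 47 TTTGAA matches in member windows, 34 lay within 50 bases of the gene start (72.3%, against 25.3% of the matches in all windows). The variant TTCGAA was in 3 member windows, the E2F-like TTGGCGC in 7 and TTCCCGC in 1, against 1.56%, 2.45% and 4.60% of all windows. These are descriptions of letters in a window and not of binding, and the members were chosen for roles that such promoters are known to serve.

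**Figure D1:**
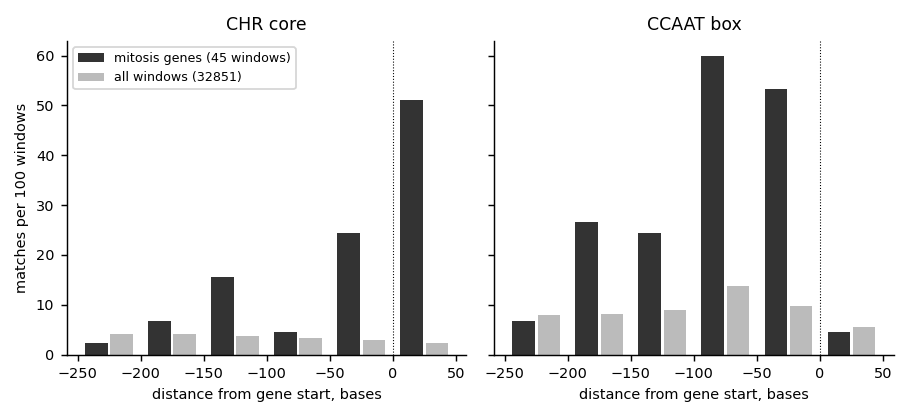
Matches per 100 promoter windows to the CHR core (left) and the CCAAT box (right), both strands, in bins of 50 bases from the annotated gene start (0, dotted line). Dark bars are the 45 windows of mitosis genes and light bars all 32851 windows. The CHR core peaks just after the start in the mitosis genes, and the CCAAT box peaks in the 100 bases before it.

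The arrays were alike in overall level, with medians of 4.15 to 4.24 on the log2 scale of the deposited values, and 32.1% to 34.5% of all probe sets reached log2 6, the floor used here for a measured signal. All 12 macrophage markers, among them Csf1r, Adgre1 and Cd68, were above the floor on every array. The 49 members were not alike between arrays. The floor was reached by 34 members in Jmjd3-/- cells with LPS, 47 in unstimulated Jmjd3-/- cells, 20 in wild-type cells with LPS and 40 in unstimulated wild-type cells. The spindle motor genes Kif15 and Kif4 were under the floor on all 4 arrays, with at most 4.28 and 5.86, and were not tested. Another 7 members, Cdc25c, Plk1, Espl1, Cenpf, Ndc80, Kif2c and Ckap2, reached it on the unstimulated Jmjd3-/- array alone, so they passed through the array where they were highest. A reading under log2 6 is close to background, so a difference that involves one has an uncertain size.

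The levels fell into 1 order for most members. Unstimulated Jmjd3-/- cells were highest, then unstimulated wild-type cells, then Jmjd3-/- cells with LPS, and wild-type cells with LPS were lowest, in 38 of the 47 members that reached the floor. Among all 9385 genes that reached it, 17.2% had this order. Unstimulated Jmjd3-/- cells were highest for 46 of 47, the exception being Pttg1, and wild-type cells with LPS were lowest for 43. Both arrays with LPS lay below both unstimulated arrays for 40. The share of all genes was not taken for these last counts. The 7 members that reached the floor on the unstimulated Jmjd3-/- array alone had to be highest there. With 1 array per group these orders have no replicate check.

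**Figure D2:**
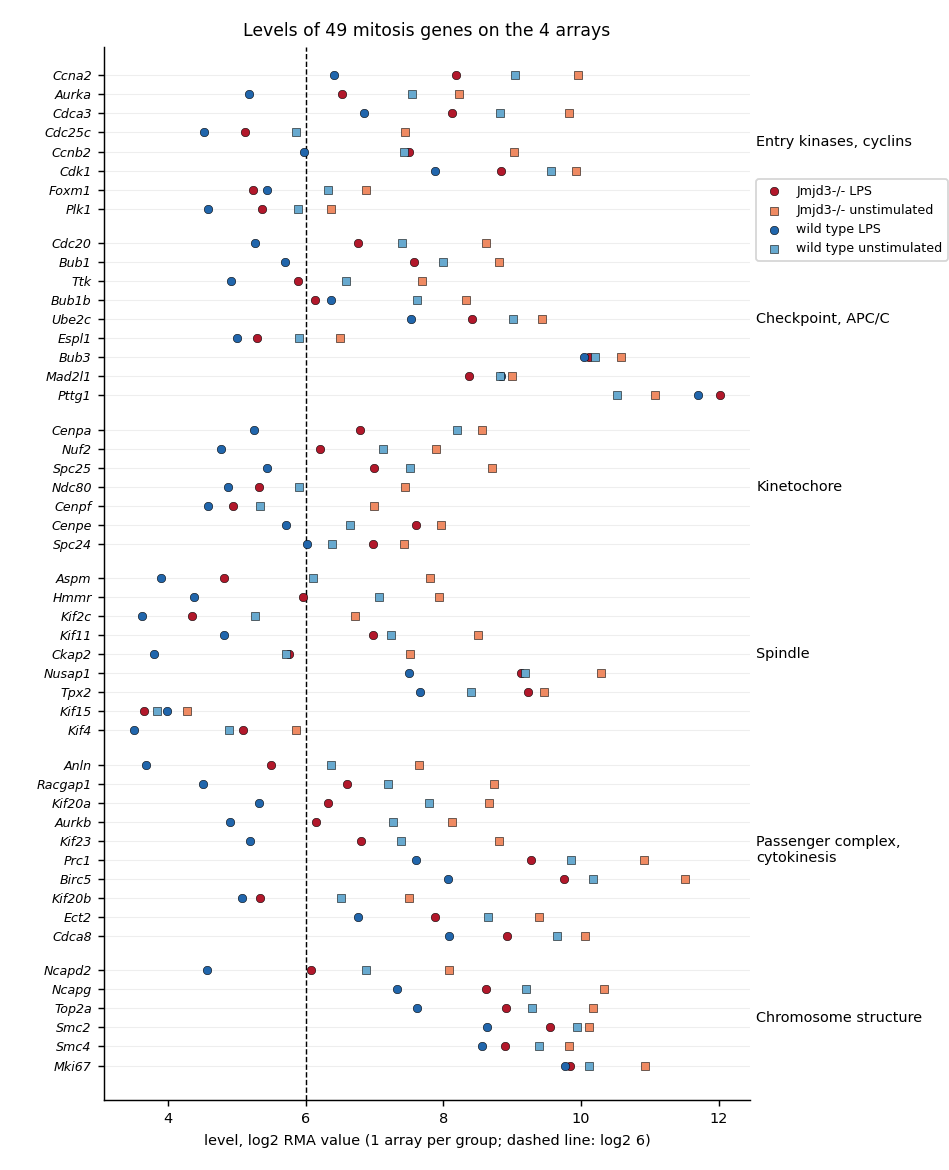
Level of each of the 49 measured mitosis genes on the 4 arrays, as log2 RMA values on the horizontal axis, with genes grouped by role. Red and orange are Jmjd3-/- cells, dark and light blue wild-type cells, circles are with LPS and squares unstimulated, and the dashed line is the floor at log2 6. Orange squares lie farthest right in all tested genes but Pttg1.

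The first comparison asked what LPS did to these genes in both genotypes. Of the 47 members tested, 37 fell with LPS, 1 rose and 9 did not pass. Across all 9385 genes, 18.8% fell and 11.2% rose. The median difference of the members was -1.76 on the log2 scale, against -0.22 for all genes tested. The test was limma's moderated test of an additive model of LPS and genotype over the 4 arrays, which shares 1 residual degree of freedom, the difference between both LPS responses. Calls were made at a Benjamini-Hochberg adjusted p below 0.05 over all 9385 genes. With the floor set on the mean of the 4 arrays, so that no member enters through its highest array alone, 30 of 37 members fell, against 19.1% of all genes. No member passed when genotype was left out of the model (limma, lowest adjusted p = 0.078, 23 of 47 at an unadjusted p below 0.05), where the difference between genotypes counts as error. With the arrays centred on housekeeping genes 34 members fell and 1 rose, and 52.2% of all LPS calls were decreases, against 62.7% as deposited. With 1 array per group no spread between replicates was measured, and the error is the difference between both LPS responses, moderated by limma. The labels do not say whether the cultures came from separate mice, so it is unknown whether this error holds variation between mice.

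Genes of mitotic entry fell in 7 of 8 cases. Of the 7, Cdc25c reached the floor on the unstimulated Jmjd3-/- array alone, so it had to be lower with LPS in Jmjd3-/- cells. Cdk1, the kinase that starts mitosis, read 8.84 in Jmjd3-/- and 7.89 in wild-type cells with LPS, against 9.94 in Jmjd3-/- and 9.57 in wild-type cells without it. Both arrays with LPS lay below both unstimulated ones, and Cdk1 fell by 1.39 on the log2 scale (SE 0.23, limma adjusted p = 0.0159). Ccna2, encoding cyclin A2, read 8.19 in Jmjd3-/- and 6.41 in wild-type cells with LPS, against 9.95 in Jmjd3-/- and 9.04 in wild-type cells without it. It had the largest decrease of the group, and fell by 2.20 (SE 0.27, limma adjusted p = 0.00923), or 4.58-fold. Aurka, the Aurora kinase of the spindle poles, read 6.53 in Jmjd3-/- and 5.18 in wild-type cells with LPS, against 8.22 in Jmjd3-/- and 7.54 in wild-type cells without it, and fell by 2.03. Ccnb2, encoding cyclin B2, read 7.51 in Jmjd3-/- and 5.98 in wild-type cells with LPS, against 9.03 in Jmjd3-/- and 7.42 in wild-type cells without it. The Jmjd3-/- level with LPS was thus slightly above the unstimulated wild-type level, and the difference within genotype was -1.48 (limma adjusted p = 0.00979).

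Foxm1, the transcription factor that drives mitotic genes, read 5.24 in Jmjd3-/- and 5.44 in wild-type cells with LPS, against 6.88 in Jmjd3-/- and 6.33 in wild-type cells without it. It fell by 1.27 (SE 0.32, limma adjusted p = 0.0423), and its lower readings are under the floor. Under the alternatives tried its adjusted p ran from 0.0426 to 0.147, passing in 2 of 7. Plk1, Polo-like kinase, read 5.37 in Jmjd3-/- and 4.57 in wild-type cells with LPS, against 6.36 in Jmjd3-/- and 5.89 in wild-type cells without it, and its difference of -1.16 did not pass (limma adjusted p = 0.0549). Only 1 of its 4 readings reached the floor. Cdca3, an adaptor for degradation of the mitotic inhibitor Wee1, and Cdc25c, the phosphatase that activates Cdk1, fell as well, with differences of -1.85 and -1.83.

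Checkpoint and anaphase genes were the least uniform group, with 5 of 9 lower, 1 higher and 3 that did not pass. Cdc20, the activator of the anaphase-promoting complex, read 6.76 in Jmjd3-/- and 5.27 in wild-type cells with LPS, against 8.61 in Jmjd3-/- and 7.39 in wild-type cells without it. Bub1, a checkpoint kinase, read 7.57 in Jmjd3-/- and 5.70 in wild-type cells with LPS, against 8.80 in Jmjd3-/- and 7.99 in wild-type cells without it. Cdc20 fell by 1.99 (limma adjusted p = 0.00696) and Bub1 fell by 1.76 (limma adjusted p = 0.0178). The checkpoint kinase genes Ttk and Bub1b and the ubiquitin-conjugating enzyme gene Ube2c also fell, with differences of -1.74, -1.73 and -1.26.

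Mad2l1, which encodes the checkpoint protein that restrains Cdc20, stood apart from these. It read 8.37 in Jmjd3-/- and 8.84 in wild-type cells with LPS, against 9.0 in Jmjd3-/- and 8.82 in wild-type cells without it. All 4 levels lay above the floor within 0.63 of each other, and the shared difference was -0.31 (SE 0.23, limma adjusted p = 0.35). Bub3, another checkpoint protein, had a difference of -0.32 (limma adjusted p = 0.232), with levels between 10.04 and 10.58. Espl1, the separase that cuts cohesin, differed by -1.05 without passing.

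Pttg1, which encodes securin, the inhibitor of separase, rose. It read 12.03 in Jmjd3-/- and 11.70 in wild-type cells with LPS, against 11.07 in Jmjd3-/- and 10.53 in wild-type cells without it. Both arrays with LPS lay above both unstimulated ones, and the increase was 1.06 (SE 0.14, limma adjusted p = 0.0104), or 2.09-fold. Its other probe sets were higher with LPS by 1.41 and 1.29. The window of Pttg1 held neither TTTGAA nor CCAAT, and 8 of the 42 genes with a window held no TTTGAA, namely Pttg1, Ccnb1, Bub1, Mad2l1, Cenpe, Nuf2, Nusap1 and Birc5. Of the 6 others of these that were tested for LPS, Bub1, Nuf2, Nusap1 and Birc5 fell and Mad2l1 and Cenpe did not pass. Among 402 tested genes outside the panel with both motifs in 1 window 21.6% fell with LPS, against 18.8% of all 7625 tested genes outside the panel that had a window.

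Kinetochore genes fell in 4 of 7 cases. Of the 4, Ndc80 reached the floor on the unstimulated Jmjd3-/- array alone, so it had to be lower with LPS in Jmjd3-/- cells. Cenpa, the histone variant that marks centromeres, read 6.78 in Jmjd3-/- and 5.25 in wild-type cells with LPS, against 8.57 in Jmjd3-/- and 8.19 in wild-type cells without it, and fell by 2.36 (limma adjusted p = 0.0114). Nuf2 and Spc25 encode parts of the NDC80 complex that grips microtubules. Nuf2 read 6.20 in Jmjd3-/- and 4.77 in wild-type cells with LPS, against 7.90 in Jmjd3-/- and 7.13 in wild-type cells without it. Spc25 read 7.0 in Jmjd3-/- and 5.44 in wild-type cells with LPS, against 8.71 in Jmjd3-/- and 7.52 in wild-type cells without it. In both genes the arrays with LPS were the lower pair, and the differences were -2.03 and -1.90.

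The partner Spc24 differed less. It read 6.98 in Jmjd3-/- and 6.02 in wild-type cells with LPS, against 7.43 in Jmjd3-/- and 6.39 in wild-type cells without it, a difference of -0.41 (limma adjusted p = 0.20). Cenpe, the kinetochore motor, read 7.61 in Jmjd3-/- and 5.72 in wild-type cells with LPS, against 7.96 in Jmjd3-/- and 6.64 in wild-type cells without it. In both of these genes the genotypes separated the arrays more than LPS did, and the LPS difference of Cenpe, -0.64, did not pass (limma adjusted p = 0.102). Ndc80 fell by 1.58, a call kept in 5 of 9 alternatives. Cenpf, a late-cycle kinetochore protein, differed by -1.40 without passing.

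Spindle genes fell in 6 of 7 cases and held the largest decrease of the panel. Of the 6, Kif2c and Ckap2 reached the floor on the unstimulated Jmjd3-/- array alone, so they had to be lower with LPS in Jmjd3-/- cells. Aspm, a spindle pole protein whose promoter is printed above, read 4.81 in Jmjd3-/- and 3.89 in wild-type cells with LPS, against 7.81 in Jmjd3-/- and 6.11 in wild-type cells without it. It fell by 2.61 (SE 0.35, limma adjusted p = 0.011), or 6.09-fold, with both readings after LPS under the floor. Hmmr, a spindle assembly factor, read 5.96 in Jmjd3-/- and 4.37 in wild-type cells with LPS, against 7.93 in Jmjd3-/- and 7.07 in wild-type cells without it, and fell by 2.34. Kif11, the motor that separates spindle poles, read 6.98 in Jmjd3-/- and 4.81 in wild-type cells with LPS, against 8.50 in Jmjd3-/- and 7.23 in wild-type cells without it, and fell by 1.97. All of these had both arrays with LPS below both unstimulated arrays.

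Ckap2, a microtubule-associated protein, read 5.76 in Jmjd3-/- and 3.79 in wild-type cells with LPS, against 7.51 in Jmjd3-/- and 5.71 in wild-type cells without it. It fell by 1.83, although the Jmjd3-/- reading with LPS was about that of unstimulated wild-type cells. Tpx2, which activates Aurora A at the spindle, read 9.23 in Jmjd3-/- and 7.66 in wild-type cells with LPS, against 9.47 in Jmjd3-/- and 8.41 in wild-type cells without it. Its difference of -0.49 did not pass (limma adjusted p = 0.144), and its other probe set above the floor differed by 0.44, the opposite way. The microtubule depolymerase gene Kif2c and Nusap1, a microtubule-binding protein, fell as well, with differences of -2.0 and -1.42. The call was kept in 4 of 7 alternatives for Kif2c and in 10 of 11 for Nusap1.

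All 10 genes of the chromosomal passenger complex and of cytokinesis fell, with differences of -2.42 to -1.35. Anln encodes anillin, which scaffolds the contractile ring. It read 5.49 in Jmjd3-/- and 3.68 in wild-type cells with LPS, against 7.65 in Jmjd3-/- and 6.37 in wild-type cells without it, and fell by 2.42 (SE 0.31, limma adjusted p = 0.00994). Racgap1, a subunit of centralspindlin, read 6.60 in Jmjd3-/- and 4.51 in wild-type cells with LPS, against 8.73 in Jmjd3-/- and 7.20 in wild-type cells without it, and fell by 2.42 (SE 0.25, limma adjusted p = 0.00658). Both genes were lowest in wild-type cells with LPS. Cdca8, borealin of the passenger complex, had the smallest decrease of the group, with 8.92 in Jmjd3-/- and 8.08 in wild-type cells with LPS, against 10.06 in Jmjd3-/- and 9.65 in wild-type cells without it. The motor genes Kif20a, Kif23 and Kif20b had differences of -2.40, -2.10 and -1.80. Those of the kinase gene Aurkb, the bundling protein gene Prc1 and the passenger subunit gene Birc5 were -2.17, -1.95 and -1.93.

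Genes of chromosome structure fell in 5 of 6 cases. Ncapd2 and Ncapg encode subunits of condensin, which compacts chromosomes. Ncapd2 read 6.07 in Jmjd3-/- and 4.56 in wild-type cells with LPS, against 8.08 in Jmjd3-/- and 6.87 in wild-type cells without it, and fell by 2.16. Ncapg read 8.62 in Jmjd3-/- and 7.33 in wild-type cells with LPS, against 10.33 in Jmjd3-/- and 9.21 in wild-type cells without it, and fell by 1.79. The core condensin genes Smc2 and Smc4, which also serve outside mitosis, had smaller decreases, with differences of -0.94 and -0.88. The LPS call was kept in 6 of 11 alternatives for Smc2 (limma adjusted p = 0.0451) and in 10 of 11 for Smc4. Top2a, the topoisomerase that untangles chromosomes, read 8.91 in Jmjd3-/- and 7.62 in wild-type cells with LPS, against 10.18 in Jmjd3-/- and 9.28 in wild-type cells without it, and fell by 1.47 (limma adjusted p = 0.0114).

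Mki67, which encodes the proliferation antigen Ki-67, did not pass. It read 9.85 in Jmjd3-/- and 9.77 in wild-type cells with LPS, against 10.94 in Jmjd3-/- and 10.12 in wild-type cells without it. Both arrays with LPS lay below both unstimulated ones, with a difference of -0.72 (SE 0.24, limma adjusted p = 0.0771).

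**Figure D3:**
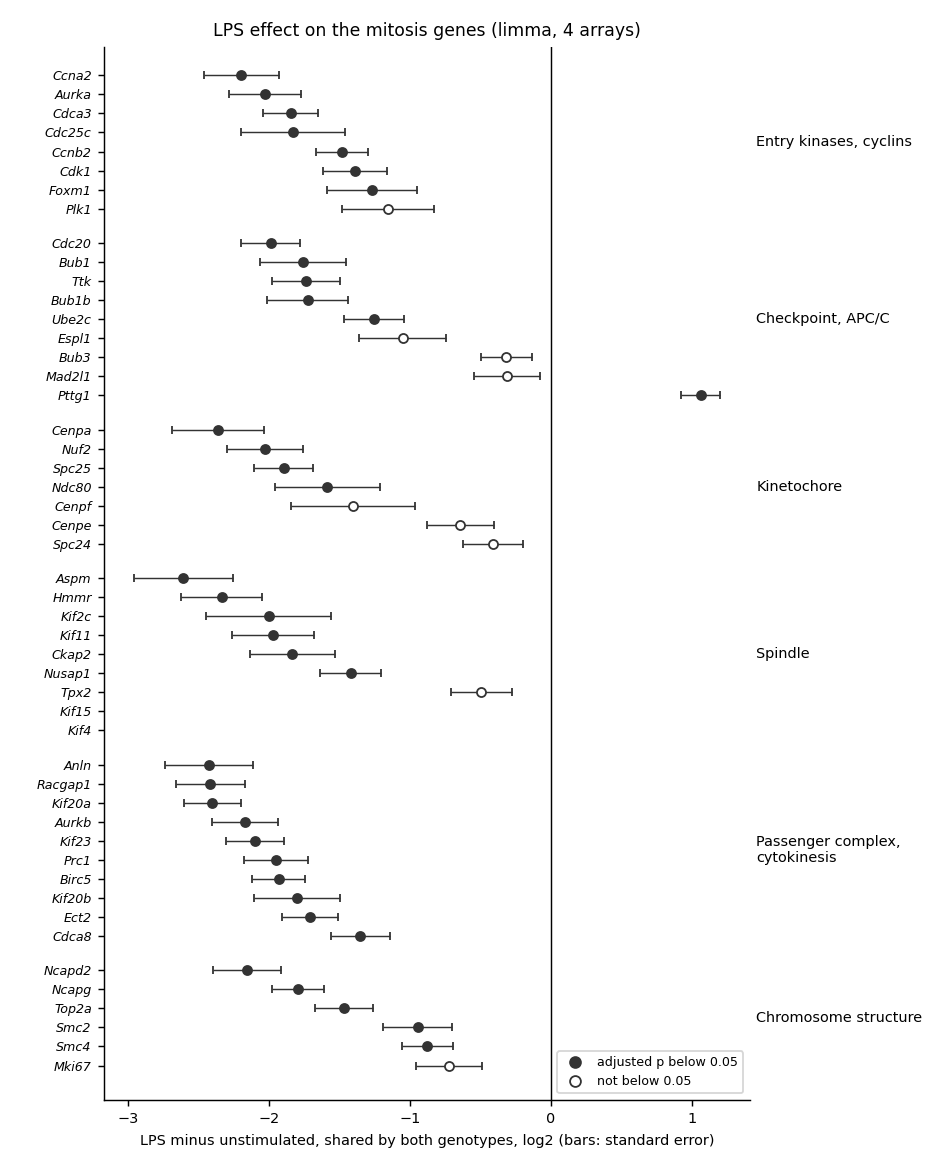
LPS minus unstimulated difference shared by both genotypes for the 47 tested mitosis genes, log2, with the standard error of the limma fit over 4 arrays. Filled points passed an adjusted p below 0.05. The lowest value is -2.61 in Aspm, all 10 passenger complex and cytokinesis genes are filled, and Pttg1 alone lies to the right of 0. Kif15 and Kif4 were under the floor and have no point.

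Genes beside the panel, from lists drawn up by role with earlier results of these data known, gave the setting. Of 82 further mitosis genes tested, 38 fell with LPS and 0 rose, led by Cdc25b (-3.19), the phosphatase that starts Cdk1 activation, Ccnf (-2.49), which encodes cyclin F, and Ska1 (-2.36), a kinetochore protein. Of 32 replication genes, 21 fell, among them Tk1 (-2.38), thymidine kinase, Gmnn (-2.17), the licensing inhibitor geminin, and Uhrf1 (-1.77), while the clamp loader gene Rfc3 (1.03) rose. Of 17 E2F and DREAM genes, 6 fell and 0 rose, including E2f2 (-2.12), E2f7 (-1.59), E2f6 (-1.58) and E2f1 (-1.37). Mybl2, which encodes B-Myb, was under the floor on all 4 arrays.

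The regulators of the first gap phase were divided, with 5 of 15 lower and 4 higher with LPS. Ccnd2, encoding cyclin D2, rose by 2.90 (limma adjusted p = 0.00238) and Cdkn1a, encoding the inhibitor p21, by 0.82 (limma adjusted p = 0.0163). Cdkn2c, encoding the inhibitor p18, fell by 2.41 and the pocket protein gene Rbl2 fell by 1.18. Cdkn1b and Ccnd1 had differences of -0.37 and 0.33 that did not pass.

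The LPS differences of the genotypes were then set side by side, as single arrays with no test. In Jmjd3-/- cells 38 of 47 members were at least 2-fold lower with LPS and 0 were 2-fold higher, against 15.5% and 11% of all genes, with a median of -1.70. In wild-type cells 31 of 40 members were at least 2-fold lower and 1, Pttg1, was higher, against 14.3% and 9.86% of all genes, with a median of -1.88. The floor was reached by 47 members without and 34 with LPS in Jmjd3-/- cells, and by 40 and 20 in wild-type cells. Members that reached it on the unstimulated array alone had to be lower with LPS. With the floor on the mean of the 4 arrays, 29 of 37 were 2-fold lower in each genotype. The shares of all genes were then 13.4% in Jmjd3-/- and 13.2% in wild-type cells. In 45 of 47 members the level was lower with LPS in both genotypes, a share that was not taken for all genes. For each genotype by itself, 5931 of 9122 genes were lower with LPS in Jmjd3-/- and 5371 of 8627 in wild-type cells. The difference between the LPS responses reached 2-fold in 4 of 47 members, 2 lower and 2 higher. These counts are near the shares of all genes, 4.73% lower and 5.19% higher. The LPS difference was lower in Jmjd3-/- cells for Cenpf (-2.05 in Jmjd3-/- and -0.76 in wild-type cells) and Ndc80 (-2.13 in Jmjd3-/- and -1.04 in wild-type cells). It was less negative in Jmjd3-/- cells for Cenpa (-1.79 in Jmjd3-/- and -2.94 in wild-type cells) and Bub1 (-1.23 in Jmjd3-/- and -2.29 in wild-type cells). Some of these readings are under the floor, and no residual degree of freedom is left to test the difference.

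**Figure D4:**
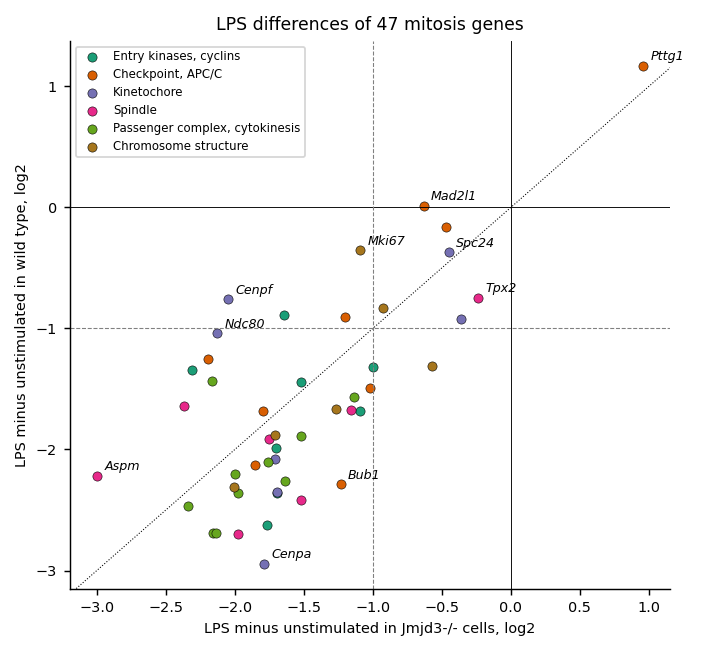
LPS minus unstimulated difference in Jmjd3-/- cells (horizontal axis) against that in wild-type cells (vertical axis), log2, for 47 mitosis genes coloured by role, from 1 array per group. The dotted line marks equal differences and dashed lines a 2-fold decrease. Nearly all genes lie in the lower left, Pttg1 lies above 0 on both axes, and Cenpf, Ndc80, Cenpa and Bub1 lie farthest from the dotted line.

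The second comparison asked whether the genotypes differed. Of the 47 members, 18 rose in Jmjd3-/- cells, 0 fell and 29 did not pass in the same limma fit, against 6.39% of all genes higher and 3.12% lower. The median difference was 1.09 on the log2 scale, against 0.05 for all genes tested. With the floor on the mean of the 4 arrays, 15 of 37 rose, against 4.58% of all genes. No member passed when LPS was left out of the model (limma, lowest adjusted p = 0.387, 2 of 47 at an unadjusted p below 0.05), where the LPS difference counts as error. Counts of members that rose were between 7 and 8 with a floor of log2 8, with the mean of all probe sets of a gene or with probe sets that carry no class letter.

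Markers of some other cell types also differed between the genotypes. Of 13 markers of granulocyte precursors, 11 rose in Jmjd3-/- cells and 1, Mmp8, fell, with a median of 5.50, led by Ngp (7.78) and Mpo (6.93). All 13 reached the floor on both Jmjd3-/- arrays, against 6 in wild-type cells with LPS and 3 in unstimulated wild-type cells. The log2 of their summed level was 15.25 with LPS and 15.24 without in Jmjd3-/- cells, against 12.23 with LPS and 11.77 without in wild-type cells. Of 15 stromal markers tested, 14 rose, with a median of 5.24, among them Col3a1 (6.17) and Myl9 (6.08), and the log2 of their summed level was 14.84 with LPS and 15.11 without in Jmjd3-/- cells, against 10.04 with LPS and 9.71 without in wild-type cells. Of 12 macrophage markers 1 rose, Fcgr1, and 1 fell, Itgam, and the log2 of their summed level lay between 15.85 and 15.99 on the 4 arrays. Of 3 lymphoid markers above the floor, Cd3e and Cd3g fell, while Cd79b differed the other way, by 1.98, without passing (limma adjusted p = 0.11). Of the erythroid markers only Tfrc was above the floor. The part of these cells in the genotype difference of the mitosis genes was not tested, and in bulk RNA a change in the share of a cell type cannot be told apart from a change in RNA per cell.

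For LPS, 0 of the 15 stromal markers passed in limma (1 at an unadjusted p below 0.05), and of the 13 granulocyte precursor markers Mmp8 fell and 0 rose. Of the 12 macrophage markers 3 fell and 2 rose. The part of these cells in the LPS difference was not tested either.

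By role, the genotype difference passed for 4 of 7 spindle genes, 5 of 10 passenger and cytokinesis genes, 3 of 6 chromosome genes, 3 of 8 entry genes, 2 of 7 kinetochore genes and 1 of 9 checkpoint genes. Ckap2 had the value farthest from 0, 1.89 (SE 0.30, limma adjusted p = 0.0272), but it reached the floor on the unstimulated Jmjd3-/- array alone, and its call was lost with a floor of log2 7 and with 64 added to the linear values. It was followed by Racgap1 at 1.81 (SE 0.25, limma adjusted p = 0.0169) and Kif11 at 1.72 (SE 0.29, limma adjusted p = 0.031). Both of these calls were lost with a floor of log2 8 and with the mean of all probe sets, and that of Kif11 also with probe sets that carry no class letter and without the intensity trend. Cenpe and Ccnb2 rose by 1.61 and 1.56, or 3.04-fold and 2.96-fold. Tpx2, which did not pass for LPS, rose by 1.32 in Jmjd3-/- cells, and both of its probe sets above the floor were higher there, by 1.32 and 1.17. Cdc20, with a rise of 1.36, was the 1 checkpoint gene that passed. The other genes that rose were Kif23, Birc5, Prc1, Anln, Nusap1, Spc25, Ncapd2, Ncapg, Ccna2, Cdca3 and Top2a, by 1.09 to 1.54. Among these, the call was kept in 3 of 8 alternatives for Anln and 4 of 11 for Ccna2. It was kept in 5 of 10 for Top2a and 6 of 11 for Ncapd2, and in a larger share for the rest.

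The 29 members without a genotype call ranged from -0.15 in Mad2l1 to 1.34 in Bub1 (limma adjusted p = 0.0655). Aspm and Hmmr differed by 1.31 and 1.23 without passing (limma adjusted p = 0.10 and 0.0721), above some members that passed, such as Top2a at 1.09. Cdk1 differed by 0.66 between genotypes (limma adjusted p = 0.165), Mki67 by 0.45, Pttg1 by 0.44 and Bub3 by 0.23. Foxm1 differed by 0.18 (limma adjusted p = 0.768), and its other probe set above the floor by -0.18. Mad2l1 was the only tested member with a negative value (limma adjusted p = 0.746). In all, 16 of 47 members both fell with LPS and rose in Jmjd3-/- cells, against 125 of all 9385 genes tested. Cenpe and Tpx2 rose in Jmjd3-/- cells without a call for LPS.

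The genotype difference was read in each state from single arrays, with no test. Unstimulated, all 47 members were above 0, against 5136 of 9045 genes in all. Of the members, 22 were at least 2-fold higher in Jmjd3-/- cells, against 9.54% of all genes. None was 2-fold lower, against 5.74%. The 7 members that reached the floor on the unstimulated Jmjd3-/- array alone had to be higher there, and with the floor on the mean of the 4 arrays 15 of 37 were 2-fold higher, against 6.41% of all genes. Of 34 members at the floor with LPS, 23 were at least 2-fold higher and 0 were 2-fold lower. The shares of all genes were 9.76% and 5.65%, and the lowest members were Mad2l1 (-0.47) and Bub1b (-0.23). Of the 34, 20 also reached the floor in wild-type cells with LPS, and the others had to be higher in Jmjd3-/- cells. With the floor on the mean of the 4 arrays, 24 of 37 were 2-fold higher with LPS, against 7.08% of all genes. The median was 1.32 with LPS over 34 members and 0.99 unstimulated over 47. The sets of members differ, since 13 were under the floor on both arrays with LPS. Kif11 had the highest difference of the 34 members with LPS, 2.16, and Ckap2 that of the 47 unstimulated, 1.80.

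The related lists were read in the same fit, where 6.39% of all genes were higher and 3.12% lower in Jmjd3-/- cells. Of 82 further mitosis genes 8 rose and 0 fell, among them Pbk (1.93), a mitotic kinase, and of 32 replication genes 4 rose and 0 fell, among them Tk1 (1.65). Of 17 E2F and DREAM genes and 15 regulators of the first gap phase 0 passed in limma (2 and 4 at an unadjusted p below 0.05). Ccnd1, encoding cyclin D1, had 11.37 with LPS and 10.01 without in Jmjd3-/- cells, against 8.27 with LPS and 8.97 without in wild-type cells, a difference of 2.06 that did not pass (limma adjusted p = 0.0772).

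**Figure D5:**
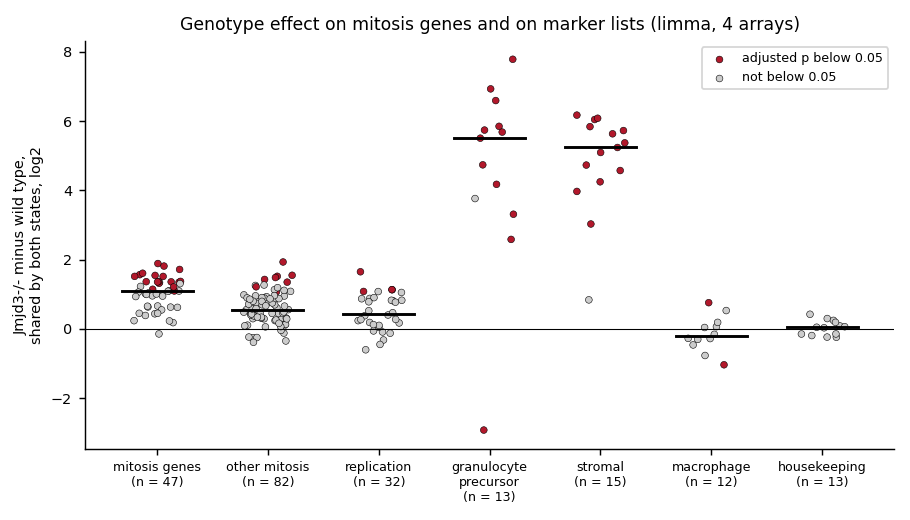
Jmjd3-/- minus wild type difference shared by both states, log2, for each tested gene of 7 lists, from the limma fit over 4 arrays. Red points passed an adjusted p below 0.05, black bars are medians and points are spread sideways for visibility. Granulocyte precursor and stromal markers have medians of 5.50 and 5.24, mitosis genes 1.09, and housekeeping genes lie near 0.

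Probe sets of the same gene gave the same picture for most members. The 49 members had 114 probe sets, of which 76 reached the floor on an array. Of these 76, 72 were lower with LPS and 74 were higher in Jmjd3-/- cells. The shares over all probe sets were not taken. Among 22 members with several probe sets at the floor, the signs differed for Tpx2 with LPS and for Foxm1 between genotypes, and probe sets of 1 member had a median SD of 0.24 for the LPS and 0.21 for the genotype difference. The probe sets used were of the class without a letter for 28 members, of class a, shared by transcripts of 1 gene, for 14, and of the less specific classes s and x for 4 and 3.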

How the data were processed

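Total RNA was extracted with Trizol and labelled with the NuGEN Ovation system, per the labels' protocols. The authors deposited log2 probe set values for 4 Affymetrix arrays, made with RMA per the submitters' processing notes, and no version is given in the sources used here. An array gives no count, so precision is limited by the 1 array per group.

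Of 45101 probe sets, 34945 named 1 gene, in the platform annotation updated through RefSeq GRCm38.p6, and gave 18193 genes. The additive model of LPS and genotype was fitted with limma 3.58.1 in R 4.3.3 (intensity trend, prior of 3.84 degrees of freedom) on the 9385 genes at or above log2 6 on an array. P-values were adjusted over these. Differences of 2 arrays counted at 2-fold, where the higher array reached log2 6. The fit was tested on simulated data. Python 3.11.15, numpy 2.4.6, pandas 2.3.3 and scipy 1.17.1 were used.

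Values on every array are given for Cdk1, Foxm1, Mki67 and Top2a and, per role, for the 2 genes with the largest and the 1 with the smallest LPS effect and the 2 with the largest genotype effect. Outside the panel the 3 genes per list with the largest LPS effect and 6 set regulators are named. Pbk, Rfc3 and further markers were chosen after their values were seen. Members and lists were chosen with earlier results of these data known. Alternatives were other floors, probe sets, normalizations, scales and models, and arrays left out.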

Additional observations from a re-analysis of the deposited data

Results flagged for a closer look

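Differences that pointed in opposite directions in the groups compared, each between single arrays and with the difference itself not tested, were found for 10 of the genes named in the text. Across all 9385 genes tested, the LPS differences of both genotypes had the same sign for 7669 and the genotype differences of both states for 6508. Foxm1 differed between genotypes by -0.20 with LPS and 0.56 without, and Bub1b by -0.23 with LPS and 0.71 without. Mad2l1 differed between genotypes by -0.47 with LPS and 0.18 without, and with LPS by -0.63 in Jmjd3-/- and 0.01 in wild-type cells. Outside the panel, Rbl2 differed between genotypes by 0.085 with LPS and -0.28 without, Gmnn by 0.10 with LPS and -0.00 without, and Uhrf1 by 0.36 with LPS and -0.11 without. Rfc3 differed between genotypes by 0.37 with LPS and -0.17 without, and Csf1r by -0.095 with LPS and 0.22 without. Ngp differed with LPS by -0.13 in Jmjd3-/- and 0.19 in wild-type cells, where both of its readings were under the floor (4.06 with LPS and 3.87 without). Ccnd1 differed with LPS by 1.36 in Jmjd3-/- and -0.70 in wild-type cells, the widest gap of these.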

How the results depend on the processing

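No paired analysis was possible because each group had 1 array and the labels carry no replicate numbers. No call of a member was kept under every alternative, because the model without the other factor left 0 members called for LPS and 0 for genotype; across all genes it called 84 lower and 183 higher for LPS and 11 lower and 100 higher for genotype. The directions of the member medians for LPS and genotype were kept in all alternatives. The models without the intensity trend or without the other factor could not change these medians. Counts are of members and medians are log2. With the floor on the mean of the 4 arrays, chosen after seeing the data, 2 members had a 2-fold difference between LPS responses. A floor of log2 7 left 12 members 2-fold higher between genotypes with LPS. A floor of log2 8 left 7 called for genotype, 25 lower with LPS in Jmjd3-/- and 13 in wild-type cells, 12 and 8 higher between genotypes without and with LPS (median with LPS 0.96) and 2 with a 2-fold difference between LPS responses. Fewer members were tested there. The mean of all probe sets gave an LPS median of -1.32 (-1.37 in Jmjd3-/- cells, -1.49 in wild-type cells, where 16 were lower), 7 called for genotype (median 0.81), 13 higher unstimulated (median 0.77), 9 higher with LPS (median 0.96) and 1 with a 2-fold difference between responses. Probe sets without a class letter left 19 that fell (median -1.42), 8 called for genotype, 23 lower with LPS in Jmjd3-/- and 17 in wild-type cells, and 10 higher between genotypes with LPS (median 0.96). With 64 added to the linear values the medians were -1.18 for LPS (-1.17 in Jmjd3-/- and -1.21 in wild-type cells), 0.60 for genotype, 0.75 unstimulated with 9 members higher, and 0.80 with LPS with 10 higher; 0 had a 2-fold difference between responses, whose median reversed to -0.12, against 0.30 as reported. Apart from the fewer members tested, the cause was not tested. Leaving out 1 array, with no test, gave LPS medians of -1.70 to -1.68 and genotype medians of 0.99 to 1.25. These are the medians of the differences within 1 genotype or 1 state over 47 members, so they are no separate check. Centring on housekeeping genes moved the median of all genes to -0.11 for LPS and 0.14 for genotype; of all LPS calls 52.2% were lower, against 62.7%, and 34 members fell, 1 rose with LPS and 15 rose in Jmjd3-/- cells. Without the intensity trend 12 rose in Jmjd3-/- cells, against 18.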
